A study of Mus musculus with 4 samples.

Results

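The 10 genes described here encode proteins that carry bile acids across the gut epithelium or that sense them: Slc10a2, Fabp6, Slc51a, Slc51b, Abcc3, Fgf15, Nr1h4, Nr0b2, Gpbar1 and Nr1i2. They were chosen by gene name, and the level of a gene was the sum of FPKM, fragments scaled to transcript length and library size, over its transcripts. The 10 genes had 23 of the 141738 transcripts and were 10 of the 55203 genes in the files. RNA was sequenced from the gut of adult male C57BL/6NTac mice, wild type, specific-pathogen-free (SPF) and 8 to 12 weeks old. There were 2 libraries labelled as processed with 4 mM RVC and 2 labelled as fresh frozen. RVC, ribonucleoside vanadyl complex, inhibits ribonucleases. The protocol text is the same for all libraries and describes an RVC rinse, so what sets the fresh-frozen tissue apart is known from its label alone. The labels do not say whether libraries came from separate mice, so each p-value below measures the spread between these libraries, which may be technical. Batch numbers also differ between all 4 libraries, so an effect of batch cannot be told apart from one of treatment. Where 4 values follow each other, they stand in the order RVC 1, RVC 2, fresh frozen 1, fresh frozen 2.

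Bile acids are made from cholesterol in the liver, secreted into the small intestine and largely recovered in the ileum. There the apical sodium-dependent transporter Slc10a2 takes them up, the cytosolic protein Fabp6 binds them, and the heterodimer of Slc51a and Slc51b releases them at the basolateral side. Inside the cell they activate the nuclear receptor FXR, encoded by Nr1h4, which induces Slc51a, Slc51b, Fabp6, Nr0b2 and the hormone Fgf15 and represses uptake. Bile acids that reach the colon are altered by bacteria, can enter cells passively, and are ligands of the membrane receptor TGR5 (Gpbar1) and of the xenobiotic receptor PXR (Nr1i2).

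The sample labels name ileum and the protocol names distal colon. Of 18 colon markers, 17 reached 1 FPKM in all 4 libraries and none was at 0 in all of them, with Car1 between 1576 and 1781 FPKM. Of 23 ileum markers, none of them a gene described here, 9 reached 1 FPKM in all libraries, and Apoa4, Defa17 and Defa22 were listed at 0 throughout. The highest ileum markers were Slc15a1 at 211, Rbp2 at 76.5 and Slc5a1 at 61.1 FPKM on average. The median of log2(FPKM + 1) over the colon markers exceeded that over the ileum markers by 6.34 to 7.08. By their medians the markers thus went against the label ileum in every library, although single ileum markers were well measured. Depth, read from the ratio of coverage to FPKM, ranged from 72.6% to 100% of the deepest library, fresh frozen 2.

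The members ranged from abundant transcripts down to 0. Abcc3 was highest at 36.0 ± 4.22 FPKM (SD, n = 4). Nr1i2 followed at 20.2 ± 2.05 and Nr1h4 at 19.7 ± 0.811 FPKM (SD, n = 4 each), and their ranges overlapped. Slc51b, at 14.0 ± 3.36 FPKM (SD, n = 4), lay below Nr1h4 in every library and below Nr1i2 in all but fresh frozen 2. Next came Fabp6 at 3.37 ± 0.514, Slc10a2 at 2.73 ± 0.400 and Slc51a at 2.201 ± 0.250 FPKM (SD, n = 4 each). The range of Fabp6 overlapped that of Slc10a2, and the range of Slc10a2 overlapped that of Slc51a, but the ranges of Fabp6 and Slc51a did not meet. Within each library the 3 genes stood in this same order. Gpbar1 stood at 0.149 ± 0.0644 FPKM (SD, n = 4), Nr0b2 was at or near 0, and Fgf15 was listed at 0. Among the 13771 genes tested, which had a mean of at least 1 scaled FPKM and a transcript of at least 300 nt, Abcc3 ranked at the 87.6th percentile, Nr1i2 at the 78.2nd, Nr1h4 at the 77.7th and Slc51b at the 70.0th. Fabp6, Slc10a2 and Slc51a ranked at the 30.8th, 25.5th and 19.9th.

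**Figure D1:**
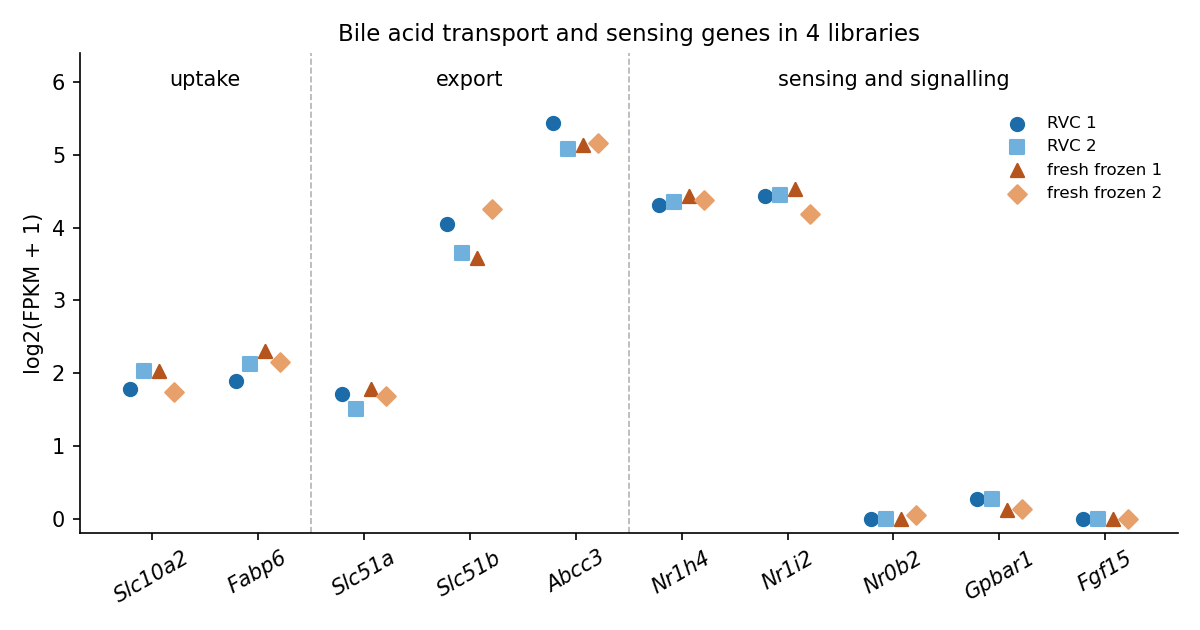
Level of each gene as log2(FPKM + 1) (vertical axis) in the 4 libraries (symbols), grouped by role. Abcc3, Slc51b, Nr1h4 and Nr1i2 lie well above the uptake genes Slc10a2 and Fabp6, while Nr0b2, Gpbar1 and Fgf15 lie at or near 0.

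Slc10a2 (ENSMUSG00000023073, chromosome 8, 5133219 to 5155351, GRCm39, minus strand) has a single transcript of 4152 nt. It measured 2.44, 3.07, 3.07 and 2.33 FPKM. RVC 2 and fresh frozen 1 were the higher pair, so the groups overlapped. The files give bounds around each FPKM value, and for a gene with 1 transcript the distance from value to bound was read as 2 square roots of a fragment number. Read in this way, the Slc10a2 values rested on 263 to 323 fragments per library. The reading is approximate, since in each library 61.2% to 63.0% of low values gave a whole number, and what the others hold is not known. The uptake transporter was therefore measured at a low level and not at the limit of detection.

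Fabp6 (ENSMUSG00000020405, chromosome 11, 43486876 to 43492367, minus strand), the ileal bile acid binding protein, has a single transcript of 479 nt. Its level was 2.70, 3.37, 3.96 and 3.44 FPKM. Because the transcript is short, these values rested on 22.0 to 34.7 fragments, and the bounds in all 4 libraries overlapped. Fabp6 exceeded Slc10a2 per length by 1.10 to 1.48 times. Both ileal uptake genes thus stood at about the same low level in every library.

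FXR binds DNA mainly with its partner RXR, at a pair of half-sites AGGTCA and TGACCT that face each other with 1 base between them. The 250 bases before the gene start were searched on both strands in RefSeq promoters of GRCm38.p6, which held 8 of the 10 genes. Abcc3 and Fgf15 had no entry. No promoter of these genes matched all 12 letters. The closest were in Fabp6, at 2 places with 2 mismatches each, a count that 0.959% of all 32851 promoters reach. Slc51a and Slc51b had 3 mismatches, reached by 9.63% of promoters, and the remaining 5 genes had 4, reached by 50.0%. An exact half-site occurred in Slc51a, Slc51b and Nr1h4, and in 14.0% of all promoters. The windows of the FXR target genes of the transport route are shown with the compared stretch in capitals, all on the minus strand, at chr11:43601760-43601796, chr11:43601680-43601716, chr16:32487934-32487970 and chr9:65422936-65422972 of GRCm38.p6.
Fabp6, upstream match: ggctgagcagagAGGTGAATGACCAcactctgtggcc
Fabp6, downstream match: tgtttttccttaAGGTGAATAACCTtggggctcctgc
Slc51a: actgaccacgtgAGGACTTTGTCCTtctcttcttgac
Slc51b: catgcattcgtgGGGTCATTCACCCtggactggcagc
These letters are a description of the sequence only. Bases beyond these 250 were not searched, so a poor match does not show that a gene lacks a site. The relation of match to level was not tested.

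Slc51a (ENSMUSG00000035699, chromosome 16, 32293322 to 32306697, minus strand) and Slc51b (ENSMUSG00000053862, chromosome 9, 65319996 to 65330237, minus strand) encode the subunits of one basolateral exporter, and neither is known to transport bile acids alone. Slc51a measured 2.29, 1.85, 2.43 and 2.23 FPKM. Slc51b measured 15.5, 11.5, 10.97 and 18.04 FPKM. The subunit genes were thus unequal in every library, with Slc51b 6.77, 6.23, 4.51 and 8.09 times as high per length as Slc51a. On the log2(FPKM + 1) scale Slc51a less Slc51b was -2.21 ± 0.321 (SD, n = 4). Both genes share exon sequence with a gene on the opposite strand, and whether strand was used in counting is not given in the sources used here. For Slc51a this is Pcyt1a, at 12.9 to 15.0 FPKM, whose exons cover 921 of 3343 exonic bases. For Slc51b it is Rasl12, at 0.314 to 0.960 FPKM, whose exons cover 91 of 1011 exonic bases. These bases are counted in GENCODE vM39, where Slc51b is longer than its deposited transcript of 709 nt, so the measured overlap may differ. The part of these overlaps in the subunit difference was not tested.

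Abcc3 (ENSMUSG00000020865, chromosome 11, 94234121 to 94283823, minus strand), known as MRP3, is a basolateral pump for conjugated bile acids and glucuronides. It measured 42.2, 32.8, 34.0 and 34.9 FPKM, so RVC 1 stood above 3 close values. Abcc3 was 1.94 to 3.10 times as high per length as Slc51b and 10.7 to 17.3 times as high as Slc10a2. Of its 6 transcripts, ENSMUST00000178136 carried 20.4 to 24.3 FPKM and ENSMUST00000021231 carried 10.9 to 13.4 FPKM. In GENCODE vM39 their coding sequences differ at a single place, where the splice acceptor of one exon lies 3 bases further upstream in ENSMUST00000178136. The site is shown because it is the only coding difference between the 2 main transcripts, with the 3 bases in capitals, intron to their left and exon to their right, at chr11:94250746-94250787 of GRCm39, minus strand.
Abcc3, tandem acceptor: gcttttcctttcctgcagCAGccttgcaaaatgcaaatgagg
The form that keeps the 3 bases made up 64.4%, 65.3%, 62.9% and 63.3% of the FPKM of both long transcripts. This share varied by 1.06 percentage points (SD, n = 4). The short transcript ENSMUST00000126566, at 667 nt and with no coding sequence defined, varied more, from 0.580 to 3.55 FPKM. Exons of Gm51871 on the opposite strand, not analysed here, cover 622 of 5945 exonic bases of Abcc3.

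By their median, the export genes stood above the uptake genes. The median of log2(FPKM + 1) over Slc51a, Slc51b and Abcc3 exceeded that over Slc10a2 and Fabp6 by 2.21, 1.57, 1.41 and 2.31. The mean difference was 1.88 ± 0.450 (SD, n = 4). The export median was the value of Slc51b, the middle gene, in every library. The excess held for Abcc3 and Slc51b in each library, whereas Slc51a was below both uptake genes in each. The median over the 5 sensing genes less that over the uptake genes was -1.81 ± 0.194 (SD, n = 4). That median described the group poorly, because Nr1h4 and Nr1i2 stood near 20 FPKM and the other 3 below 0.3, and with means in place of medians the difference shrank to -0.21. No test was made of these differences, since the genes were chosen with results known.

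**Figure D2:**
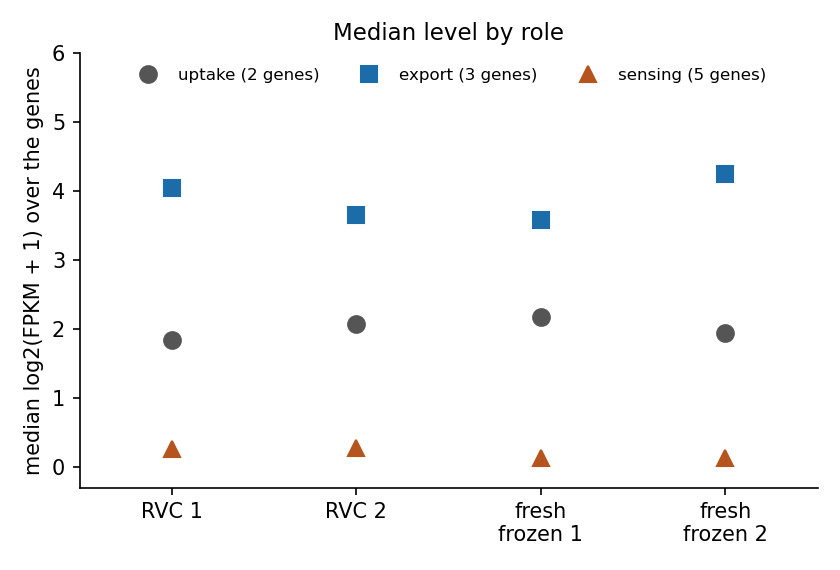
Median of log2(FPKM + 1) over the uptake, export and sensing genes (vertical axis) in each library (horizontal axis). The export median, which is the value of Slc51b, lies between 3.58 and 4.25. It is above the uptake median of 1.84 to 2.17 in every library, and the sensing median lies at 0.12 to 0.27.

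The libraries with the most Slc51b, fresh frozen 2 and RVC 1, had the least Slc10a2. RVC 2 and fresh frozen 1 did not continue this order, as both genes stood slightly higher in RVC 2. These genes were set side by side with their values in view, and 4 libraries are too few to tell a relation between them. The ratio of Slc51b to Slc10a2 was 6.36, 3.75, 3.58 and 7.75. For Slc51b the bounds of fresh frozen 2, 15.9 to 20.2 FPKM, did not meet those of RVC 2, 9.63 to 13.4, or of fresh frozen 1, 9.08 to 12.9. For Slc10a2 the bounds of fresh frozen 2, 2.06 to 2.59 FPKM, did not meet those of RVC 2, 2.73 to 3.41, or of fresh frozen 1, 2.71 to 3.42. RVC 1 stood apart less clearly: its Slc10a2 bounds, 2.14 to 2.74 FPKM, met those of both RVC 2 and fresh frozen 1. Its Slc51b bounds, 13.3 to 17.7 FPKM, met those of RVC 2 and not those of fresh frozen 1. By its bounds, only fresh frozen 2 thus lay apart from RVC 2 and fresh frozen 1 in both genes. As read here, the bounds hold counting error only. How many other genes lie apart between these libraries was not counted, so this is a description of values already seen.

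Of the 18 colon markers, 4 had RVC 1 and fresh frozen 2 both above or both below the other libraries. This pair of libraries was set by the levels of Slc51b, and the count was made after the values were seen. How often other genes have this order was not counted, so the 4 are not read as a result. Hoxd13, a homeobox gene of the posterior body, was lower in that pair, at 9.59, 26.0, 39.5 and 5.68 FPKM. Ang4, which encodes an antimicrobial ribonuclease, was higher in it, at 41.8, 1.12, 1.95 and 13.2 FPKM, as were Retnlb and Mptx1. The other markers did not have this order, among them the homeobox genes Hoxa13 at 20.9, 20.5, 21.6 and 22.2 FPKM and Hoxb13 at 133, 124, 132 and 98.5 FPKM. Over all 18 the summed level was 12769, 11595, 10741 and 9725 FPKM. The part of these markers in the variation of Slc51b and Slc10a2 was not tested.

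**Figure D3:**
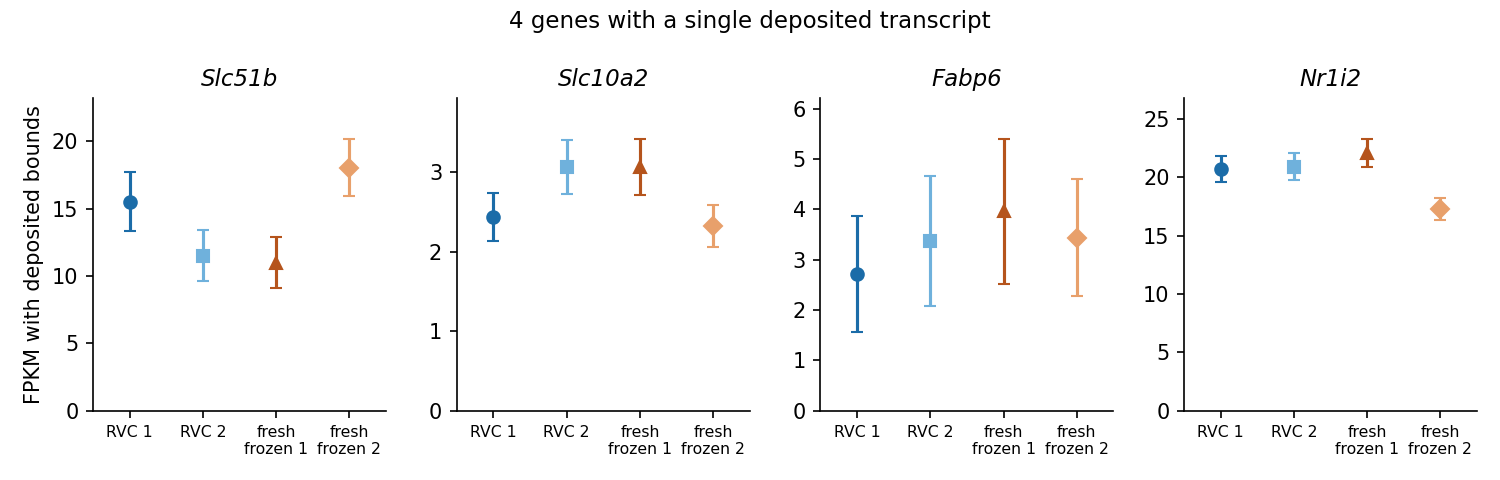
FPKM (vertical axes, each with its own scale from 0) of 4 genes with a single deposited transcript in the 4 libraries (horizontal axes), with the lower and upper bounds given in the files as bars. Slc51b is highest where Slc10a2 is lowest, in RVC 1 and fresh frozen 2, while the wide bars of Fabp6 overlap in all libraries.

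Nr1h4 (ENSMUSG00000047638, chromosome 10, 89290096 to 89369447, minus strand), the bile acid receptor FXR, was the steadiest member. It measured 18.8, 19.5, 20.7 and 19.8 FPKM, a 1.10-fold range. The groups did not overlap, by a small margin. FXR is known to occur in forms with and without a short insertion next to the DNA-binding domain. In GENCODE vM39 the insertion corresponds to a choice of splice donor that adds 12 bases (chr10:89319234-89319245, GRCm39, minus strand) to a coding exon. The junction is shown because it separates the deposited transcripts, with the 12 bases in capitals, the shared exon to their left and intron to their right, at chr10:89319224-89319269.
Nr1h4, alternative donor: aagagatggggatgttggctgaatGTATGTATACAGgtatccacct
The transcript without the 12 bases, ENSMUST00000058126, was the most abundant at 12.2, 12.9, 11.4 and 12.2 FPKM. ENSMUST00000105296, which has them and starts at the same promoter region, measured 4.03, 4.56, 7.99 and 5.73 FPKM. ENSMUST00000105297, which has them and starts further upstream, measured 2.55, 2.05, 1.37 and 1.85 FPKM. Transcripts with the insertion made up 35.0%, 33.96%, 45.2% and 38.3% of Nr1h4 FPKM. Both RVC values lay below both fresh-frozen values, and the fresh-frozen libraries differed from each other by about as much as from RVC.

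**Figure D4:**
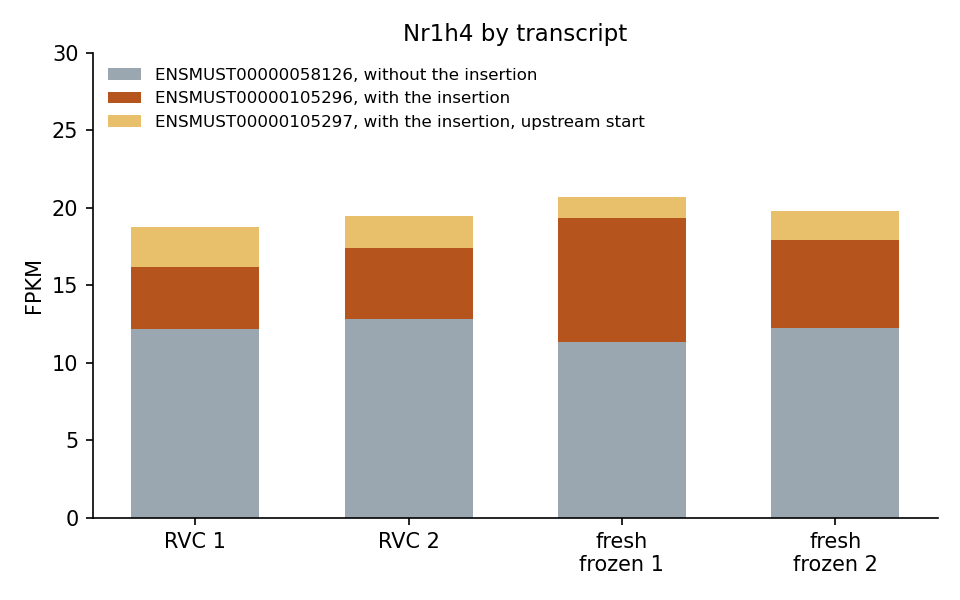
FPKM of Nr1h4 (vertical axis) in each library (horizontal axis), stacked by deposited transcript; the bars show single values without error. Totals stay between 18.8 and 20.7 FPKM, while the transcript ENSMUST00000105296 ranges from 4.03 FPKM in RVC 1 to 7.99 in fresh frozen 1.

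Nr1i2 (ENSMUSG00000022809, chromosome 16, 38068685 to 38115186, minus strand), the receptor PXR, was about as abundant per length as Nr1h4, with a ratio of 0.873 to 1.10. It measured 20.7, 20.9, 22.1 and 17.3 FPKM, so fresh frozen 2 stood below 3 close values. With 1294 to 1384 fragments behind each value, it was the best counted of the genes with 1 transcript.

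Nr0b2 (ENSMUSG00000037583, chromosome 4, 133280687 to 133283847, plus strand) encodes SHP, a repressor that FXR induces in liver and ileum. It was listed at 0 in RVC 1, RVC 2 and fresh frozen 1 and at 0.0306 FPKM in fresh frozen 2, a value worth 1 fragment. For a transcript of this length 3 fragments, the upper limit that a count of 0 allows, would be worth 0.116, 0.118 and 0.128 FPKM in the first 3 libraries. Fgf15 (ENSMUSG00000031073, chromosome 7, 144450268 to 144454690, plus strand), the hormone that the ileum sends to the liver under FXR control, was listed at 0 for all 5 transcripts in all 4 libraries. The matching limit was 0.0548 to 0.0748 FPKM. FXR itself was thus measured near 20 FPKM in tissue where neither of these ileal FXR targets rose above counting error. These limits cover counting error only.

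Gpbar1 (ENSMUSG00000064272, chromosome 1, 74317709 to 74318783, plus strand) encodes TGR5, which is known from enteroendocrine cells, macrophages and enteric neurons. It measured 0.203, 0.207, 0.0892 and 0.0976 FPKM. These values were worth 5 fragments in each RVC library and 2 and 3 fragments in the fresh-frozen libraries, and the bounds of all 4 overlapped. The groups did not overlap, and Gpbar1 was too low to enter the test across genes. Without the filter on low values 9 members could be tested, and 1 of them, Gpbar1, had an unadjusted p under 0.05, where 11.1% of all 31792 genes did. Its log2 fold change was then 0.14 (SE 0.0334, limma adjusted p 0.402). In that fit the groups did not overlap for 3 of 9 members, where this held for 40.5% of all genes. Macrophage markers, 9 genes of which 8 reached 1 FPKM in all libraries, summed to 120.4, 122, 90.7 and 81.2 FPKM. Lyz2 alone held 62.8, 62.6, 45.6 and 44.6 FPKM of these sums. Enteroendocrine markers, 8 genes of which 5 reached 1 FPKM, summed to 175, 147, 185 and 195 FPKM. Pyy alone held 136, 112, 134 and 133 FPKM of these. Enteric neuron and glia markers, of which 3 of 8 reached 1 FPKM, summed to 27.7, 22.6, 17.1 and 23.8 FPKM. No marker of these lists was at 0 in all libraries, and their part in the Gpbar1 values was not tested. In whole tissue, fewer cells of a type and less RNA per cell cannot be told apart.

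RVC and fresh-frozen libraries were compared with limma on log2(scaled FPKM + 1), a scale that understates changes of genes near 1 FPKM. Among the 10, a mean of at least 1 scaled FPKM was reached by 7, which were tested, and Fgf15, Nr0b2 and Gpbar1 were not. At a limma adjusted p under 0.05, 0 of the 7 were called, where 0.0363% of all 13771 genes were. At an unadjusted p under 0.05 the count was 0 of 7, where 18.4% of all genes passed. The groups did not overlap for Fabp6 and Nr1h4, 2 of 7, where this held for 53.2% of all genes. The difference furthest from 0 was that of Fabp6, with a log2 fold change of -0.22 (SE 0.148, limma adjusted p 0.445). Slc51a had a log2 fold change of -0.12 (SE 0.150), Abcc3 of 0.11 (SE 0.139) and Nr1i2 of 0.090 (SE 0.132). Nr1h4 followed at -0.075 (SE 0.105), Slc51b at -0.067 (SE 0.238) and Slc10a2 at 0.028 (SE 0.164), and limma adjusted p-values of these 6 ran from 0.680 to 0.942. No difference in these genes between RVC and fresh frozen was detectable with 2 libraries per group, which does not show that there is none. The sign of the Slc51b difference turned to 0.28 without fresh frozen 2 and to 0.14 without RVC 2.

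**Figure D5:**
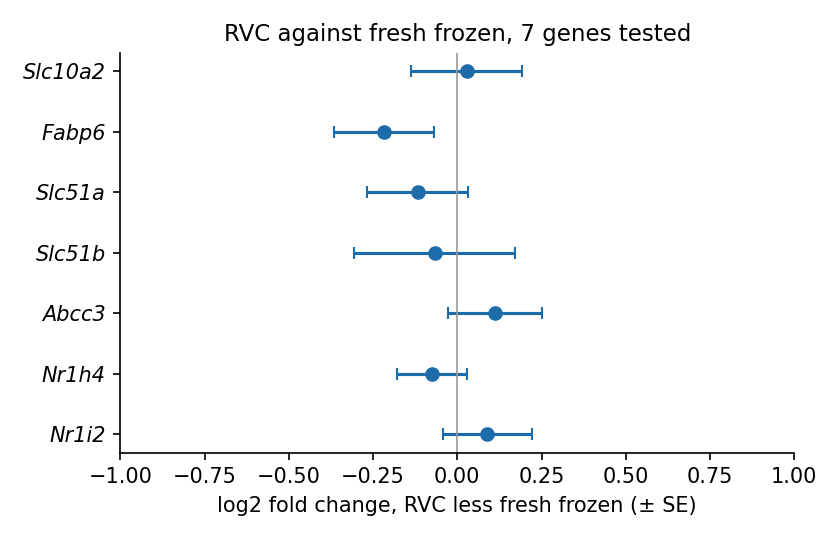
Log2 fold change of RVC less fresh frozen (horizontal axis; points, with the limma SE as bars) for the 7 genes tested. All values lie between -0.22 and 0.11, and Slc51b has the widest error.

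The same comparison was made for single transcripts, of which 11 belonged to these genes. At a limma adjusted p under 0.05, 0 of the 11 were called, where 0.00415% of all 24080 transcripts were. At an unadjusted p under 0.05 there was 1 of 11, the Nr1h4 transcript ENSMUST00000105296, where 15.6% of all transcripts passed. Its log2 fold change was -0.56 (SE 0.176, limma adjusted p 0.274), lower in RVC. The groups did not overlap for 3 of 11, both insertion-bearing Nr1h4 transcripts and the single Fabp6 transcript, where this held for 50.4% of all transcripts. The upstream Nr1h4 transcript ENSMUST00000105297 was the higher one in RVC, at a log2 fold change of 0.34 (SE 0.194, limma adjusted p 0.453).

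Other genes of bile acid handling were taken from lists of gene names chosen for their known roles. Among transporters of the apical side and of organic anions, Abcb1a, the drug efflux pump P-glycoprotein, stood out at 329 ± 37.5 FPKM (SD, n = 4). Abcg2 measured 50.0 ± 3.74, the prostaglandin carrier gene Slco2a1 40.1 ± 10.4 and Abcb1b 22.8 ± 3.03 FPKM (SD, n = 4 each). Abcb11, the bile salt export pump of hepatocytes, was listed at 0 in all libraries. At a limma adjusted p under 0.05, 0 of 11 tested genes of this list passed. At an unadjusted p under 0.05 there were 4, where 18.4% of all 13771 genes passed. Log2 fold changes of the list had a median of 0.20, beside a median of 0.0066 over all genes tested. Slco2a1 had the smallest p, at 53.5, 42.9, 33.9 and 30.2 FPKM (limma adjusted p 0.136). In the same libraries endothelial markers, 6 genes of which 3 reached 1 FPKM, summed to 31.7, 33.7, 16.8 and 17.98 FPKM. All 7 smooth muscle markers reached 1 FPKM and summed to 1287, 1921, 810.0 and 847 FPKM. No marker of either list was at 0 in all libraries. Their part in the list's values was not tested.

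Relatives of Slc10a2 were led by Slc10a5 at 14.0 ± 1.42 FPKM (SD, n = 4), above Slc10a2 in every library. Slc10a3 measured 8.75 ± 1.60 FPKM and Slc10a1, the bile acid uptake carrier of hepatocytes, 1.05 ± 0.378 FPKM (SD, n = 4 each). Of 4 tested relatives 1 was called, Slc10a7, which is not known as a bile acid carrier, where 0.0363% of all 13771 genes were called. At an unadjusted limma p under 0.05 there was 1, the same gene, where 18.4% of all genes passed. Slc10a7 measured 4.12, 4.56, 13.3 and 14.7 FPKM (log2 fold change -1.48, SE 0.126, limma adjusted p 0.0377). Summed over transcripts of 300 nt or more alone, its log2 fold change was -0.30 and the limma adjusted p 0.259, and without RVC 2 they were -1.54 and 0.0515. The log2 fold change stayed at -1.48 but the call was also lost without a filter on low values, without a length minimum and without a trend, and the 13 alternatives gave limma adjusted p-values of 0.00238 to 0.402. The median log2 fold change over these 4 genes was -0.096. Among relatives of Fabp6, Fabp2 measured 22.8 ± 14.0 FPKM (SD, n = 4), of which fresh frozen 2 alone held 43.7 and the other libraries 14.5 to 16.8. Fabp5 at 5.35 ± 1.60 and Fabp4 at 5.09 ± 1.16 FPKM were also above Fabp6 on average, Fabp3 was at 0.596 ± 0.208, and the liver form Fabp1 stood at 0.0953 ± 0.0127 FPKM (SD, n = 4 each). In limma 0 of 3 tested relatives of Fabp6 passed, also at an unadjusted p under 0.05, where 18.4% of all genes did. The median log2 fold change of these relatives was 0.061.

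Of 15 partners and regulators of the receptors, 11 reached 1 FPKM in all libraries. Hnf4a, a regulator of enterocyte and hepatocyte genes, measured 173 ± 16.3 FPKM, the vitamin D receptor gene Vdr 100.4 ± 10.2, the LXR gene Nr1h2 23.6 ± 4.42 and Rxra, the partner of FXR and PXR, 15.9 ± 2.59 FPKM (SD, n = 4 each). Vdr, which also responds to the bile acid lithocholate, was thus measured at a higher level per length than Nr1h4 or Nr1i2 in every library. In limma 0 of 12 tested genes passed. At an unadjusted p under 0.05 there were 3, where 18.4% of all genes passed. The median log2 fold change of the list was 0.095. Nr1h2 had the smallest p (limma adjusted p 0.202).

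Genes of detoxification that PXR and related receptors control included Cyp2c55 at 446 ± 78.8 FPKM, the glucuronosyltransferase gene Ugt2b34 at 176 ± 20.3, the carboxylesterase gene Ces2a at 168 ± 42.4 and Cyp3a13 at 86.4 ± 11.8 FPKM (SD, n = 4 each). Cyp3a11 and Cyp3a25, cytochrome P450 genes prominent in liver, were listed at 0 in all libraries. In limma 0 of 9 tested genes passed. At an unadjusted p under 0.05 there were 3, where 18.4% of all genes passed. The median log2 fold change of the list was 0.067. Ces2a had the smallest p, at 222 and 179.6 FPKM with RVC against 143 and 126 in fresh-frozen tissue (limma adjusted p 0.138).

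The receptor side of Fgf15 was present although the hormone was listed at 0. Its co-receptor gene Klb measured 9.48 ± 0.908 FPKM, and the receptor genes Fgfr2, Fgfr3 and Fgfr1 measured 16.9 ± 0.748, 7.73 ± 0.584 and 4.48 ± 0.598 FPKM (SD, n = 4 each). Fgfr4, the receptor through which the hormone acts in liver, stood at 0.672 ± 0.148 FPKM (SD, n = 4). In limma 0 of 4 tested genes passed, also at an unadjusted p under 0.05, where 18.4% of all genes did. The log2 fold changes had their median at 0.14, and Fgfr1 had the smallest p (limma adjusted p 0.369).

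Of 13 genes of bile acid synthesis, 5 reached 1 FPKM in all libraries. These were Scp2, a peroxisomal thiolase and sterol carrier gene, at 99.1 ± 5.13 FPKM, the sterol hydroxylase gene Cyp27a1 at 13.2 ± 2.76, Hsd17b4 at 12.8 ± 1.60 and Hsd3b7 at 6.72 ± 0.415, with Amacr at 1.56 ± 0.338 FPKM (SD, n = 4 each). Cyp7a1, the rate-limiting enzyme of synthesis in liver, and Slc27a5 were listed at 0 in all libraries. In limma 0 of the 5 tested genes passed. At an unadjusted p under 0.05 there was 1, where 18.4% of all genes passed. The median log2 fold change of the list was 0.097. Cyp27a1 had the smallest p (limma adjusted p 0.184).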

How the data were processed

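The libraries were made from total RNA with enzymatic depletion of ribosomal RNA, per the labels' protocols. Per the submitters' processing notes, the authors used TopHat2 2.1.1, Cufflinks 2.2.1 and GRCm39. Annotation release, strand setting and read filters are not given in the sources used here. The deposited FPKM values, with lower and upper bounds, were listed per transcript, per the file headers, as was coverage, a signal of reads per base that is not scaled to depth. FPKM depends on the other RNAs of a library, and Cufflinks shares reads between overlapping transcripts by likelihood, so transcript values carry assignment error.

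Gene FPKM was the sum over transcripts. Libraries were scaled by median ratio (factors 0.992 to 1.01). Genes or transcripts with a mean of at least 1 scaled FPKM, a longest transcript of at least 300 nt and status OK were tested with limma 3.58.1 in R 4.3.3 (log2(scaled FPKM + 1), pseudocount 1, trend, two-sided, 4 libraries) and p-values were adjusted (Benjamini-Hochberg) across every gene or transcript tested. In simulated data the share of false calls was above the nominal level of 0.05, so adjusted p-values near it are too small. Levels are deposited FPKM. A fragment number was the square of 2 / (upper bound / FPKM - 1). Among genes with 1 transcript and 0.5 to 5.5 such fragments, 61.2% to 63.0% of numbers were within 0.02 of a whole number. Transcript structures and overlaps came from GENCODE vM39 (GRCm39).

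Members and lists were chosen with earlier results of these data known. From each list the 4 most abundant genes, any gene called and the tested gene of smallest p are named. Fabp1, Abcb11, Cyp3a11, Cyp3a25, Fgfr4, Cyp7a1, Slc27a5 and Amacr are named outside this rule. Hoxd13 and Ang4, and Slc51b beside Slc10a2, were picked with their values in view. The alternatives tried were a pseudocount of 0.1, other scaling, other filters, blocks, no trend and each library left out. Joins used pandas 2.3.3 and plots matplotlib 3.10.9.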

Additional observations from a re-analysis of the deposited data

How the results depend on the processing

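The count of called members was 0 under every alternative run, for genes and for transcripts. The count over all genes, 5, moved to 112 with sample number as a replicate block and to 0 without a filter on low values, without a trend or without transcripts under 300 nt, and ran from 8 to 40 with each library left out. At an unadjusted limma p under 0.05, the 3 settings with 0 calls had 3531, 2461 and 2577 genes. The count over all transcripts, 1, moved to 7 without the length minimum and to 0 without a filter on low values or with any library left out. The labels do not say whether sample numbers pair the libraries. Same-numbered libraries deviated from their group means with r = -0.13 across genes, which cannot settle this with so few libraries. The block called 0 members, as did every other setting. A block that pairs RVC 1 with fresh frozen 2, added after the data were seen, called 12 genes, 1 transcript and 0 members. With each library left out, log2 fold changes ran from -0.066 to 0.29 for Abcc3, -0.067 to 0.24 for Nr1i2, -0.11 to 0.16 for Slc10a2 and -0.42 to 0.28 for Slc51b, so these 4 changed sign. Fabp6, Nr1h4 and Slc51a kept theirs. The excess of export over uptake, 1.41 to 2.31 in single libraries, was 1.73 to 2.03 with each library left out and 1.58 with means. Leaving a library out averages the same values again, so here and for the differences that follow it is no separate support. The deficit of sensing genes went from -1.81 to -3.68 with a pseudocount of 0.1 and to -0.21 with means (-1.89 to -1.73 with libraries left out). Slc51a less Slc51b was -2.21, -2.59 with a pseudocount of 0.1 and -2.34 to -2.09 with libraries left out. Depth limits Gpbar1, Nr0b2 and Fgf15, for which 0 to 5 fragments were read.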
